A study of Mus musculus with 12 samples.

Results

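The comparison described here sets mouse pre-B leukemia cells labelled as Phf6 null and made with guide RNA 4 (KO_sg4) against Phf6 wild-type cells (WT). It uses 6 of the 12 RNA-seq libraries of the study, 3 per group, and 12335 of the 23224 genes in the deposited table, namely those that passed a filter on low counts. Every cell in the study is from the strain C57BL/6J, lacks p19 and carries the BCR-ABL1 oncogene, so WT differs from KO_sg4 by label in Phf6 alone. The remaining libraries are 3 with a hairpin against Phf6 and 3 labelled Phf6 null with guide RNA 1 (KO_sg1), and the latter serve here as a second reference. The labels do not say whether a knockout line is a single clone or a pool, when it was edited, or whether the 3 libraries of a group come from separate cultures, so the p-values measure a spread that may be technical.

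PHF6 is a nuclear protein encoded on the X chromosome, with zinc-binding domains related to PHD fingers. It is found with the NuRD chromatin remodelling complex and with nucleolar proteins, and its gene is mutated in human T-cell and myeloid leukemias. Precursor B cells depend on a network of transcription factors around PAX5, EBF1, IKAROS and FOXO1, on the interleukin 7 receptor and on the pre-B cell receptor, a complex of the immunoglobulin heavy chain with a surrogate light chain. BCR-ABL1 is a constitutively active tyrosine kinase that signals through STAT5, RAS and PI3 kinase. The series title names B-cell identity in this leukemia as its subject.

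Library totals were 26286540 to 30580071 estimated counts in WT, 21885578 to 30502951 in KO_sg4 and 20382328 to 36032369 in KO_sg1. Levels are given as CPM, the count of a gene relative to the scaled library total (TMM scaling). A change is given as a log2 fold change. The ± value after a log2 fold change is its absolute size divided by the square root of the test's F statistic. This approximate standard error can fall below counting error where a group has few counts. The KO_sg4 libraries were less alike than those of WT. Over genes of at least 10 CPM, the median coefficient of variation within the group was 9.51% in KO_sg4, 3.37% in WT and 5.62% in KO_sg1. Phf6 mRNA stood at 34.2, 33.9 and 35.3 CPM in the WT libraries and at 44.2, 29.5 and 36.1 in KO_sg4. The groups overlapped, and the log2 fold change was 0.09 ± 0.11 (edgeR adjusted p = 0.527), or 0.22 with an adjusted p of 0.0321 without KO_sg4 replicate 2. A small insertion or deletion need not change the amount of mRNA, so this level does not check the knockout label. In KO_sg1, by contrast, Phf6 was at 3.40 CPM. Ddx3y, Kdm5d and Uty, genes of the Y chromosome, together made up 74.7 to 85.9 CPM of the WT totals and 0.0328 to 0.137 in KO_sg4, from 1 to 4 counts a library. They were as low in KO_sg1, so lines labelled null differ from WT in Y-linked transcripts as well as in the Phf6 label, and these differences cannot be told apart in these data. The median log2 fold change of the genes on each autosome lay between -0.05 and 0.03.

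Most amino acid stress and glycolysis genes tested were lower in KO_sg4 than in WT, as were many genes of MHC class II, integrins, homing receptors and cytokine feedback, while the recombinase genes, several precursor B-cell regulators and enzymes of cholesterol synthesis were higher. In all, 4929 genes (40.0%) were called at an adjusted p below 0.05 by edgeR's quasi-likelihood test, 2215 higher (18.0%) and 2714 lower (22.0%). Counts of called members in the gene lists below are to be read against these shares. Large changes were mostly downward. Of the 1344 called genes that differed at least 2-fold (10.9% of those tested), 1036 were lower (8.40%) and 308 higher (2.50%). Over all genes tested the median log2 fold change was 0.00, and 5% of genes lay below -1.89 and 5% above 0.67. The 3 libraries of KO_sg4 did not overlap those of WT in 5706 genes (46.3%).

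**Figure D1:**
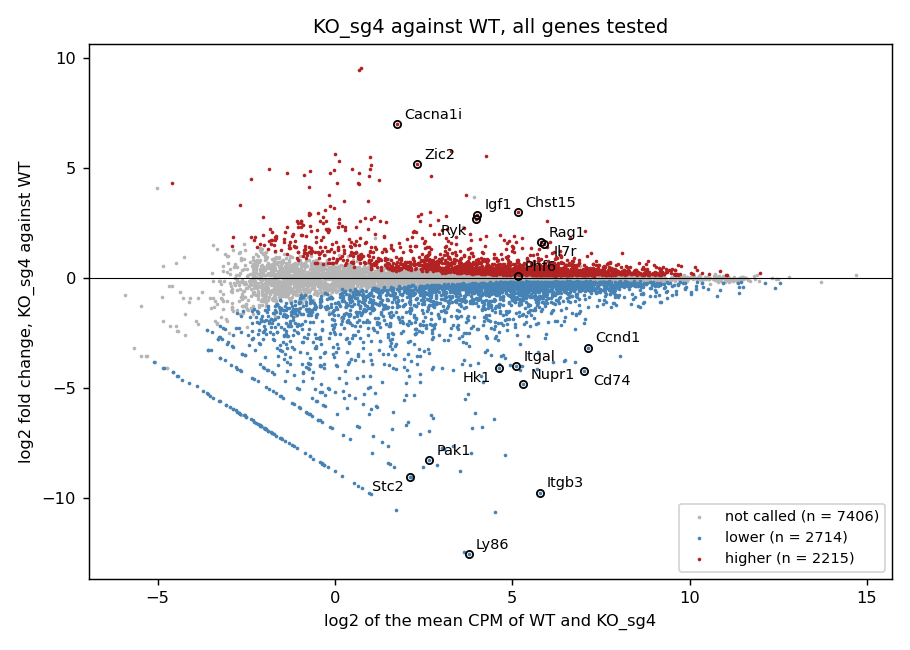
Each point is 1 of the 12335 genes tested; the horizontal axis is the log2 of the mean of the WT and KO_sg4 levels in CPM and the vertical axis the log2 fold change of KO_sg4 against WT, with genes called higher in red and lower in blue. The largest falls reach further from 0 than the largest rises, and rows of points on sloping lines at the lower left are genes at 0 or a few counts in KO_sg4, whose fitted fold changes depend on a prior count. Circled genes are named in the text.

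The genes that rose most had varied roles. Cacna1i, a T-type calcium channel, was at 0 to 0.0782 CPM in the WT libraries and at 6.36 to 7.19 in KO_sg4 (log2 fold change 7.01 ± 0.34, adjusted p = 7.05e-10). Scn4b, a sodium channel subunit, rose from 0.807 ± 0.0903 to 37.5 ± 6.38 CPM (SD, n = 3). Grap2, an adaptor that couples T-cell receptor signals to SLP-76, rose from 0.346 ± 0.0967 to 18.8 ± 3.17 CPM. Zic2, a zinc finger factor of neural development, rose from 0.259 ± 0.0214 to 9.64 ± 1.73 CPM, and Megf10, a phagocytic receptor, rose by 4.67 on the log2 scale. The adenylate cyclase gene Adcy6 (log2 fold change 3.81), the chondroitin sulfotransferase gene Chst15 (3.01), the protocadherin gene Pcdh11x (3.00), the inositol phosphatase gene Ocrl (2.91), the Wnt co-receptor gene Ryk (2.71), the dystrophin relative Utrn (2.64), Vopp1 (2.61) and Klhdc2 (2.60), whose product selects targets for a ubiquitin ligase, completed this group with Igf1 and H2-Q7. Igf1, insulin-like growth factor 1, was at 3.74, 3.38 and 4.34 CPM in WT and at 27.6, 28.2 and 28.9 in KO_sg4 (2.89 ± 0.09, adjusted p = 8.42e-12). The libraries of each group were close together in Igf1 and far apart between groups. H2-Q7 (2.83 ± 0.43) has near-identical neighbours that share its reads, so its value is uncertain. Igf1r, which encodes the receptor for this growth factor, had 0 counts in both groups, and Igf1 itself was higher still in KO_sg1, at 42.5 ± 0.263 CPM.

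The V(D)J recombinase genes and a set of precursor B-cell regulators rose. Rag1, which with Rag2 encodes the enzyme that cuts antigen receptor genes, stood at 26.3, 26.0 and 29.4 CPM in WT and at 106, 69.0 and 80.0 in KO_sg4 (log2 fold change 1.65 ± 0.12, adjusted p = 9.64e-08). Rag2 was at 10.3, 10.4 and 9.23 CPM in WT and at 30.4, 23.8 and 28.1 in KO_sg4 (1.46 ± 0.12, adjusted p = 1.90e-07). In both genes every KO_sg4 library was above every WT library, as in 20.9% of all genes tested. Il7r, the interleukin 7 receptor chain, was at 29.6, 29.7 and 30.8 CPM in WT and at 103, 82.7 and 81.9 in KO_sg4 (1.57 ± 0.08, adjusted p = 1.39e-09). Lef1, a partner of beta-catenin, was at 33.9, 29.8 and 34.6 CPM against 116, 82.6 and 107 (1.64 ± 0.12, adjusted p = 5.25e-08). Foxo1, an activator of the Rag genes and of Il7r, was at 38.5, 38.4 and 40.5 CPM against 87.1, 58.8 and 69.7 (0.88 ± 0.10, adjusted p = 1.10e-05). Replicate 1 was the highest KO_sg4 library for all 5 of these genes, and replicate 2 the lowest for all but Il7r.

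These genes belong to lists that moved in mixed ways. Of 14 genes of V(D)J recombination and end joining, 8 rose and 2 fell, with a median log2 fold change of 0.28 against 0.00 for all genes. Dntt, the template-independent polymerase, rose from 0.310 ± 0.127 to 1.45 ± 0.320 CPM, Paxip1 rose by 0.36 on the log2 scale, and the nuclease gene Dclre1c (Artemis) and the ligase gene Lig4 fell. One of the 2 falls was lost under 8 of the alternatives tried. Of 24 core B-lineage factors tested, 9 rose and 7 fell (median 0.14). Bach2, a repressor of plasma cell differentiation, was at 52.7, 48.8 and 53.9 CPM in WT and at 116, 79.0 and 89.8 in KO_sg4 (0.87 ± 0.12). Id3, an inhibitor of E proteins, rose from 43.8 ± 0.893 to 102 ± 13.4 CPM, while its relative Id2 fell from 3.41 to 0.972 CPM. Irf4, a factor of light chain rearrangement, rose by 0.42 ± 0.10 on the log2 scale. Ikzf1, which encodes IKAROS, was at 572, 564 and 592 CPM against 516, 398 and 456 (-0.34 ± 0.08, adjusted p = 0.00526), and missed the threshold when libraries were scaled by their totals (adjusted p = 0.0529). Pax5 was at 127, 133 and 120 CPM in WT and at 121, 202 and 141 in KO_sg4, groups that overlapped, and was not called (0.29 ± 0.17, adjusted p = 0.191). It was called without KO_sg4 replicate 1 (0.44, adjusted p = 0.029). Ebf1, at 58.7 CPM in WT and 69.6 in KO_sg4, was just past the threshold (0.25 ± 0.09, adjusted p = 0.0350) with overlapping groups, and missed it under 8 of the alternatives.

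**Figure D2:**
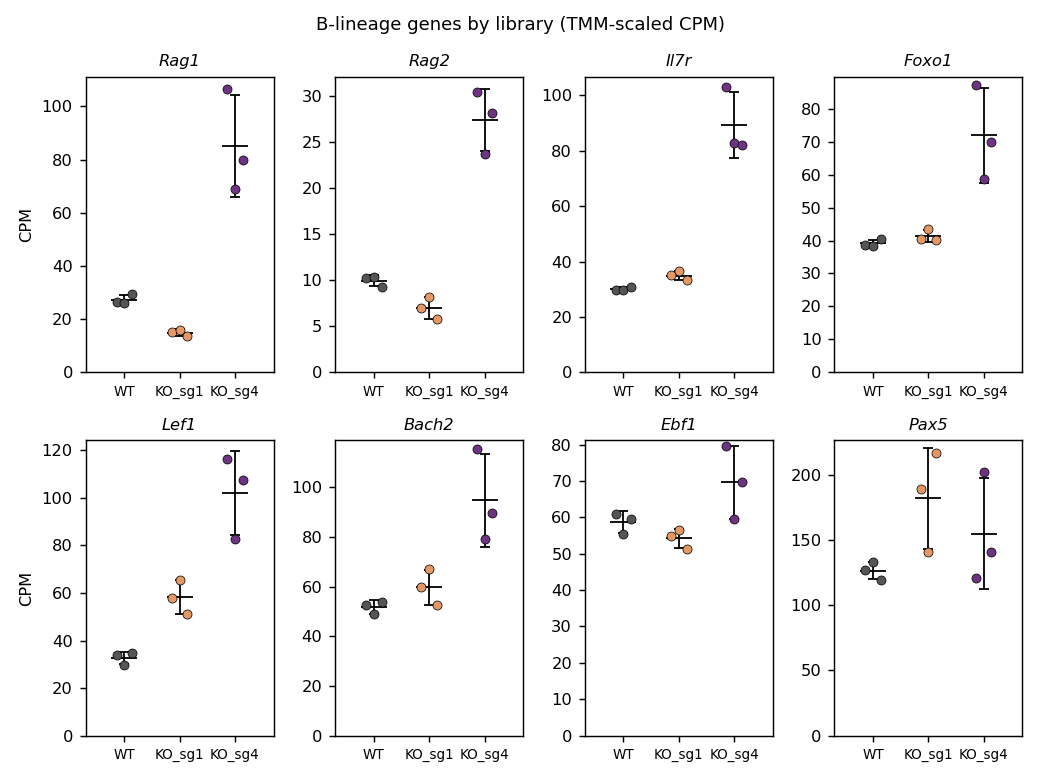
CPM of 8 B-lineage genes in each WT, KO_sg1 and KO_sg4 library (points), with the mean and SD of 3 libraries (bars); each panel has its own linear axis from 0. The KO_sg4 libraries of Rag1, Rag2, Il7r, Foxo1, Lef1 and Bach2 lie above all WT and KO_sg1 libraries, while those of Ebf1 and Pax5 overlap with WT.

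The surrogate light chain genes and Cd79b were lower in KO_sg4, and Cd79a was not. Of 17 genes of this receptor and the B-cell co-receptors tested, 10 fell and 2 rose (median -0.43). Igll1, the lambda 5 chain of the surrogate light chain, was at 1298 to 1367 CPM in WT and at 841 to 1022 in KO_sg4 (-0.48 ± 0.07, adjusted p = 9.22e-05). Vpreb1, its partner, fell by 0.51 ± 0.11 on that scale. Reads shared with any close copies of a gene would make these values uncertain. Of the signalling chains, Cd79b fell from 706 ± 18.1 to 522 ± 49.8 CPM, and Cd79a was not called (0.18 ± 0.10, adjusted p = 0.171; called higher with library totals, adjusted p = 0.0443, and without KO_sg4 replicate 1). Spn, which encodes the mucin CD43, was among the members that rose, and the co-receptor gene Cd81 (-0.52 ± 0.06) and the ectoenzyme gene Cd38 (-0.68 ± 0.09) were among those that fell. The later B-cell marker Ms4a1 was at 0.0343 CPM in WT and 0.0113 in KO_sg4. Of 11 tested markers of B cells before and after the pre-B stage, 3 rose and 2 fell (median 0.03). Over all genes tested, 18.0% rose and 22.0% fell. Il7r, Irf4 and Sdc1 rose, Sdc1 from 9.05 ± 0.624 to 19.8 ± 1.84 CPM.

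Kinases and adaptors downstream of the receptor moved in both directions. Of 24 tested, 11 fell and 6 rose (median -0.15), where 22.0% of all genes fell and 18.0% rose. The SRC-family kinase gene Blk was at 38.8, 41.1 and 37.1 CPM in WT and at 2.91, 3.76 and 3.84 in KO_sg4 (-3.49 ± 0.13, adjusted p = 4.57e-11). The adaptor gene Bank1 fell from 42.4 to 22.0 CPM. The related kinases Lck (18.0 ± 0.677 to 46.3 ± 3.37 CPM) and Fyn (53.7 ± 1.86 to 101 ± 6.45 CPM) rose, so members of the SRC family went opposite ways. The kinase gene Syk was at 182 CPM in WT and 181 in KO_sg4, with no call.

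**Figure D3:**
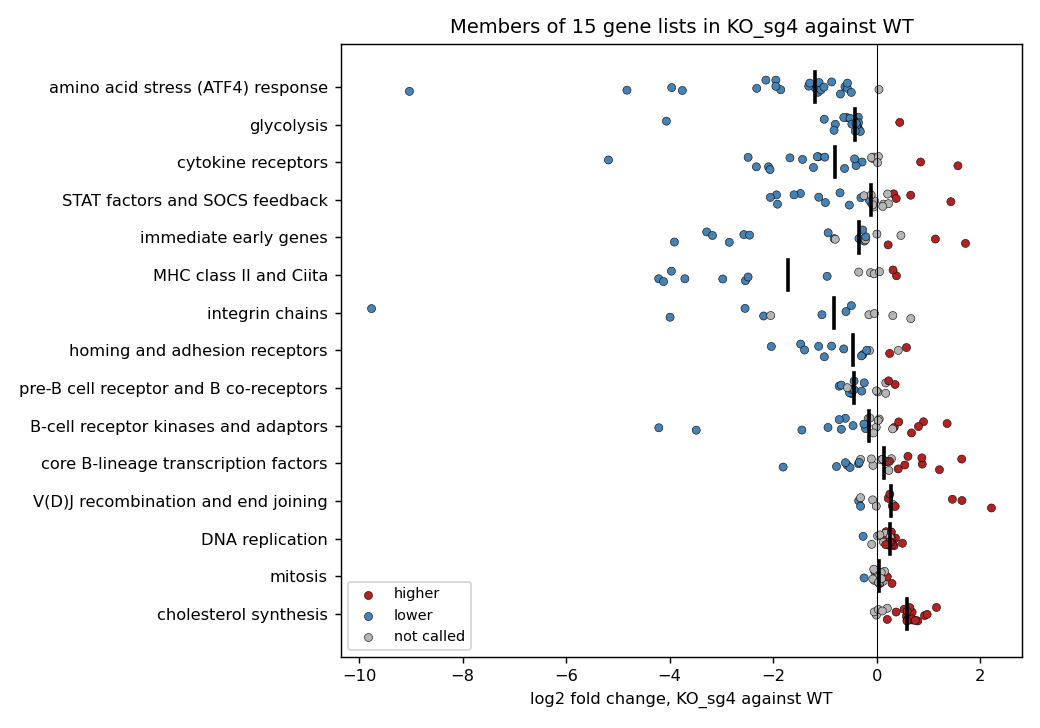
Each point is a tested member of 1 of 15 gene lists; the horizontal axis is the log2 fold change of KO_sg4 against WT, the colour shows whether the gene was called higher, lower or not called, and the black bar is the median of the list. The amino acid stress list has its median at -1.18 and MHC class II at -1.72, cholesterol synthesis has its median at 0.59, and the mitosis list lies close to 0.

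Feedback genes of cytokine signalling and most cytokine receptors fell, Il7r apart. Of 22 cytokine receptor genes tested, 15 fell and 2 rose (median -0.81); the 2 were Il7r and the interleukin 3 receptor gene Il3ra. Il10ra was at 27.3, 27.5 and 26.5 CPM in WT and at 5.02, 5.57 and 5.71 in KO_sg4 (-2.32 ± 0.07, adjusted p = 6.06e-12), and Il4ra fell from 40.6 to 12.7 CPM. Csf2rb2 fell by 2.48 ± 0.13 on the log2 scale, a value made uncertain by its near-identical neighbour Csf2rb. Of 25 genes of STAT signalling, 11 fell and 4 rose (median -0.11). Cish, a target of STAT5 that dampens cytokine receptors, was at 31.4, 32.1 and 31.0 CPM against 7.86, 9.48 and 7.85 (-1.92 ± 0.08, adjusted p = 2.67e-10). The feedback inhibitor Socs2 fell from 175 ± 2.63 to 63.0 ± 5.78 CPM, Socs3 from 32.9 ± 1.02 to 8.63 ± 0.527 and the survival kinase Pim1 from 155 ± 7.65 to 51.3 ± 6.14. These 4 genes were low in all 3 KO_sg4 libraries. The repressor gene Bcl6, the transcription factor gene Stat4 and the kinase genes Jak1 and Jak3 were the members that rose, Bcl6 from 0.741 to 2.01 CPM. Abl1, counted from the endogenous gene and any matching part of the oncogene, was at 193 CPM in WT and 209 in KO_sg4 and was not called. Bcr, the gene of the other fusion partner, fell from 86.4 to 66.1 CPM (-0.38 ± 0.08, adjusted p = 0.0021).

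Of 19 immediate early genes, which respond within minutes to growth signals, 12 fell and 3 rose (median -0.34). Klf2, a factor of lymphocyte quiescence and homing, was at 35.1, 35.0 and 35.2 CPM in WT and at 3.75, 3.42 and 3.60 in KO_sg4 (-3.28 ± 0.09, adjusted p = 1.90e-12). Atf3 fell by 3.91 on the log2 scale from 22.4 ± 0.472 CPM, and Klf4, Fosb and Fos fell by 3.17, 2.85 and 2.56 on the log2 scale. Egr1, Fosl2 and Jun rose, Egr1 from 14.1 to 46.1 CPM, so the list did not move as a block. Of 15 feedback genes of the ERK pathway, 6 fell and 3 rose, the 3 being Dusp4 (1.40 ± 0.19), Spry1 (0.47 ± 0.07) and Dusp1 (0.37). Over all genes tested, 22.0% fell and 18.0% rose.

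Genes of the amino acid stress response were lower almost throughout. ATF4 is a transcription factor whose translation rises when amino acids run short, and it activates genes of amino acid import and synthesis. All 23 members of the list were tested; 22 fell and none rose (median log2 fold change -1.18, against 0.00 for all genes and 22.0% of all genes called lower). Nupr1, a stress-induced chromatin protein, was at 77.5, 79.4 and 72.5 CPM in WT and at 2.91, 3.08 and 2.18 in KO_sg4 (-4.82 ± 0.12, adjusted p = 9.81e-13). Slc7a3, a transporter of arginine and lysine, was at 58.0, 55.4 and 59.1 CPM against 3.62, 3.81 and 3.67 (-3.96 ± 0.06, adjusted p = 1.38e-14). Both were low in all 3 KO_sg4 libraries, far below the lowest WT library. Stc2, a secreted glycoprotein, had 735 counts in WT and 1 in KO_sg4, a ratio of 714 (95% counting interval 128 to 28241). Cebpb fell from 3.19 to 0.246 CPM and the lipoprotein receptor gene Vldlr from 8.08 to 1.61. Asns, the asparagine synthetase gene, fell from 454 to 200 CPM, and Chac1, which degrades glutathione, from 50.5 to 14.1. Atf4 itself fell from 784 to 513 CPM (-0.61). The cystine transporter gene Slc7a11 was the member not called, at 16.2 CPM in WT and 16.5 in KO_sg4.

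Among members with a promoter in the RefSeq table (mouse GRCm38.p6), 5 of 21 hold the letters TGATGNAA, the core of the C/EBP-ATF response element, on either strand within 250 bases before the start, against 3.91% of 27025 genes. The windows are shown because they place this element in genes that fell and in the member that did not; capitals mark the match, read on the strand of the gene. They lie at chr6:7693210-7693271 (minus strand) for Asns, chr2:119351010-119351095 (plus strand) for Chac1, chr19:27216781-27216866 (plus strand) for Vldlr, chr7:126625534-126625619 (minus strand) for Nupr1 and chr3:50443633-50443718 (minus strand) for Slc7a11.
Asns: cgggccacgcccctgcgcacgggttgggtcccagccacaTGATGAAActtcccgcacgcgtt
Chac1: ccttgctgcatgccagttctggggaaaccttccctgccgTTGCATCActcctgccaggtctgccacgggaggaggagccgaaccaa
Vldlr: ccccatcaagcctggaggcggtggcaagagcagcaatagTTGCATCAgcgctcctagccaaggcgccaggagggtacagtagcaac
Nupr1: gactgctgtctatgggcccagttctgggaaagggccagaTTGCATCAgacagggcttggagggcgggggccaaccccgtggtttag
Slc7a11: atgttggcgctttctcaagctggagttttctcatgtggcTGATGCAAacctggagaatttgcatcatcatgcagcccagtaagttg
Slc7a11, the uncalled gene, holds a second match on the other strand. With only 1 uncalled member, whether these letters separate called from uncalled members could not be assessed.

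**Figure D4:**
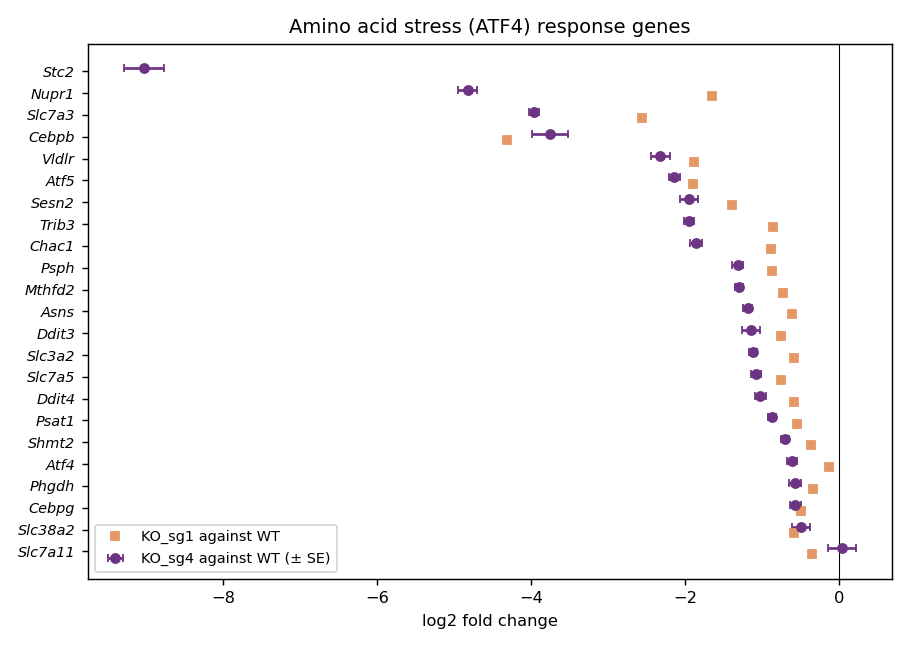
Log2 fold change against WT (horizontal axis) of the 23 amino acid stress genes in KO_sg4 (purple circles) and KO_sg1 (orange squares). Bars show the approximate standard error for KO_sg4. Both comparisons share the WT libraries, and Stc2 has no KO_sg1 mark because it had 0 counts in KO_sg1. All circles but that of Slc7a11 lie left of 0.

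The fall went further with guide 4 than with guide 1. In the direct test of KO_sg4 against KO_sg1, which does not use WT, 18 of the 23 genes were lower in KO_sg4 and none higher (median -0.44), where 3359 genes (27.2%) were called in all, 1700 higher (13.8%) and 1659 lower (13.4%). Of all genes tested, 771 (6.25%) were called and differed at least 2-fold, 379 higher (3.07%) and 392 lower (3.18%). Scaling by library totals put the median log2 difference of all genes at 0.13, against 0.01 with TMM, and gave 2836 higher and 1053 lower. Nupr1 was at 22.5, 22.3 and 29.1 CPM in KO_sg1, a log2 difference of -3.18 ± 0.13 (adjusted p = 3.43e-10). Slc7a3 was at 9.86, 9.40 and 10.1 CPM there (-1.40 ± 0.07, adjusted p = 3.66e-09). Genes of the endoplasmic reticulum stress list behaved otherwise against WT: of 20 tested, 8 rose and 3 fell (median 0.13). The chaperone gene Hspa5 rose from 475 ± 7.91 to 650 ± 37.9 CPM and Calr, calreticulin, by 0.38 ± 0.05 on the log2 scale, while Herpud1, Atf6 and the ubiquitin ligase gene Syvn1 fell; 6 members fell without KO_sg4 replicate 1.

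Glycolytic genes fell together, and genes of cholesterol synthesis rose. Of 20 glycolysis genes tested, 19 fell and 1 rose (median -0.42). Hk1, a hexokinase gene, was at 47.9, 45.7 and 45.9 CPM in WT and at 3.10, 2.30 and 2.82 in KO_sg4 (-4.06 ± 0.12, adjusted p = 3.43e-12). The other falls were smaller. Aldoa, the aldolase gene, fell from 2212 ± 91.2 to 1251 ± 145 CPM, Pfkp by 0.80 ± 0.05 on the log2 scale, Pfkm by 0.63 ± 0.06 and the lactate exporter gene Slc16a3 by 1.01 ± 0.23. Slc16a1, a carrier of lactate and pyruvate, was the member that rose (0.45). Of 23 genes of cholesterol synthesis and uptake tested, 18 rose and none fell (median 0.59). Idi1, an isomerase of the mevalonate pathway, was at 94.6, 90.3 and 93.4 CPM in WT and at 218, 186 and 216 in KO_sg4 (1.16 ± 0.07, adjusted p = 1.48e-08). Lss, which closes the sterol rings, rose from 55.8 ± 1.38 to 110 ± 3.34 CPM, and Acat2, Nsdhl and Stard4 rose by 0.93, 0.80 and 0.75 on the log2 scale. In these 5 genes, picked as the called members with the largest changes, every KO_sg4 library was above every WT library. The same held for 20.9% of all genes tested.

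D-type cyclins fell while most replication genes tested rose slightly. Ccnd1 was at 254, 256 and 255 CPM in WT and at 31.0, 26.8 and 27.4 in KO_sg4 (-3.16 ± 0.07, adjusted p = 4.06e-13). Ccnd2 was at 316, 309 and 315 CPM against 141, 111 and 122 (-1.33 ± 0.08, adjusted p = 1.02e-08). The fall of Ccnd3 was smaller, from 2877 to 2440 CPM (log2 fold change -0.24, adjusted p = 0.0028). The cell cycle inhibitor Cdkn1a, which encodes p21, was at 64.4, 67.0 and 66.9 CPM against 15.5, 17.0 and 17.8 (-1.98 ± 0.07, adjusted p = 2.56e-11). In these genes every KO_sg4 library was below every WT library, as in 25.4% of all genes tested. Of 25 genes of G1 control tested, 8 fell and 3 rose (median -0.13). Myc fell from 339 ± 7.52 to 294 ± 10.4 CPM (-0.21 ± 0.05, adjusted p = 0.00403; adjusted p = 0.0566 with library totals). Of 22 DNA replication genes, 15 rose and 1 fell (median 0.25); Mcm4, a helicase subunit gene, rose from 155 ± 2.14 to 219 ± 20.2 CPM and Pcna, the sliding clamp gene, by 0.30 ± 0.06 on the log2 scale, and Tyms, thymidylate synthase, fell. Of 20 mitosis genes, 3 rose and 1 fell (median 0.05). Aurka, a spindle pole kinase gene, was the one that fell (-0.24 ± 0.05).

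Several genes that promote cell death fell. Of 15 BCL2 family genes tested, 7 fell and 1 rose (median -0.16), where 22.0% of all genes fell and 18.0% rose. Bbc3, which encodes the killer protein PUMA, was at 29.6 ± 0.851 CPM in WT and at 7.62, 9.68 and 8.16 in KO_sg4 (-1.81 ± 0.09, adjusted p = 9.68e-10). Bmf and Pmaip1, further BH3-only genes, fell by 1.29 ± 0.13 and 1.02 ± 0.13, and the survival gene Bcl2a1b, whose close copies make its value uncertain, by 1.26 ± 0.07. Bok, a pore-forming relative, rose from 17.5 to 47.8 CPM. Cdkn1a, Bbc3 and Pmaip1 are also p53 targets, and of 17 such genes 7 fell and 4 rose (median -0.16), Gadd45a among the latter (0.80 ± 0.12). Cdkn2a, the locus of p19 and p16, was at 84.6, 80.9 and 75.8 CPM in WT and at 50.8, 79.2 and 67.4 in KO_sg4, and was not called (-0.30 ± 0.12, adjusted p = 0.0631; called under 4 of the alternatives).

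Most MHC class II genes fell, several of them to a small part of the WT level. CIITA is the coactivator that drives these genes in antigen-presenting cells, and the invariant chain CD74 escorts the class II dimers. Cd74 was at 258, 254 and 231 CPM in WT and at 11.9, 14.7 and 13.8 in KO_sg4 (-4.21 ± 0.08, adjusted p = 5.51e-14). Ciita was at 1.99, 2.18 and 1.37 CPM against 0.217, 0.342 and 0.170 (-2.97 ± 0.30, adjusted p = 2.05e-06). H2-Aa, H2-Eb1 and H2-Ab1, which encode the class II chains, fell by 4.12 ± 0.17, 3.96 ± 0.25 and 3.70 ± 0.25 on the log2 scale. Every KO_sg4 library was below every WT library in these 5 genes, picked as the called members with the largest changes. The same held for 25.4% of all genes tested. In all, 8 of 14 members fell and 2 rose (median -1.72); the 2 were the promoter-binding subunit gene Rfxap and H2-Ob, a chain of the modulator H2-O, which went from 23.2 to 30.4 CPM.

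All 10 members found in the RefSeq promoter table hold ATTGG on either strand within 250 bases before the start, against 37.49% of 27025 genes. ATTGG is the core of the Y box of class II promoters, but whether each match is a Y box was not tested. The 10 include the factor genes Rfx5 and Rfxank, while Cd74, H2-Ab1 and Ciita had no promoter in that table. Windows of the class II chain genes H2-Aa and H2-Eb1 and of H2-DMb1, a peptide-loading factor gene, which fell, are shown beside that of H2-Ob, which rose. On GRCm38.p6 they lie at chr17:34287828-34287910 (minus strand), chr17:34305769-34305851 (plus strand), chr17:34153091-34153173 (plus strand) and chr17:34238809-34238891 (plus strand), and capitals mark the Y box letters.
H2-Aa: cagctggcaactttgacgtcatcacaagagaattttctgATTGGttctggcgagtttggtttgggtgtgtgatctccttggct
H2-Eb1: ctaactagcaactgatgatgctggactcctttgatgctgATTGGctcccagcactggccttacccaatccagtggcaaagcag
H2-DMb1: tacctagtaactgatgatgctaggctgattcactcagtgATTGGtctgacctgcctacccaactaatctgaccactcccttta
H2-Ob: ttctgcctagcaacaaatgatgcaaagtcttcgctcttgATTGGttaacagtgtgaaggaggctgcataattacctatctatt
H2-Eb1 holds a second match on the other strand, left in lower case in its window. The letters were present in members that fell and in H2-Ob, which rose. MHC class I genes moved less: of 17 genes of class I and peptide loading, 7 fell and 4 rose (median -0.17; 7 rose without KO_sg4 replicate 1). H2-T23, a nonclassical class I gene, fell by 0.69 ± 0.10, while B2m, the light chain gene, was at 590 CPM in WT and 627 in KO_sg4 and was not called.

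Integrin and homing receptor genes fell. Of 12 integrin chains tested, 7 fell and none rose (median -0.82). Itgb3, the beta chain of the vitronectin receptor, was at 108, 110 and 110 CPM in WT and at 0.155, 0.147 and 0.0680 in KO_sg4 (-9.76 ± 0.13, adjusted p = 3.02e-15). Itgal, the alpha chain of LFA-1, was at 64.6, 62.3 and 69.3 CPM against 4.68, 3.42 and 4.04 (-3.99 ± 0.09, adjusted p = 4.12e-13). Itga4, a chain of VLA-4, was at 83.3 CPM in WT and 80.7 in KO_sg4 and was not called. Of 14 homing and adhesion receptors tested, 10 fell and 2 rose (median -0.46). The hyaluronan receptor gene Cd44 fell by 1.47 ± 0.09 on the log2 scale and Cd47, a signal against phagocytosis, from 97.4 ± 2.17 to 44.7 ± 3.83 CPM. Cxcr4, the receptor for the bone marrow chemokine CXCL12, and the sphingosine phosphate receptor gene S1pr4 were the members that rose (0.58 and 0.25). Among 16 genes of the integrin-activating GTPase RAP1, 7 fell and 4 rose (median -0.06). Rap1gap2, which switches RAP1 off, was at 53.8, 55.1 and 55.9 CPM in WT and at 0.279, 0.0489 and 0.238 in KO_sg4 (-8.02 ± 0.15, adjusted p = 5.77e-14), and Rapgef3, which switches it on, fell by 2.10 ± 0.17.

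In all, 15 genes of at least 5 CPM in WT had at most 3 counts over the 3 KO_sg4 libraries, and 3 of them had 0; no gene went the other way by the same limits. Ly86, which encodes MD-1, the partner of the B-cell surface receptor RP105, was at 27.5, 27.3 and 26.7 CPM in WT and had 0 counts in KO_sg4, so it was at least 746-fold lower (taking 3 counts over the group as the floor). Kdm5d, Y-linked, was at least 686-fold lower, and Usp43, a ubiquitin protease gene, at least 181-fold. Pak1, a kinase downstream of RAC and CDC42, had 1066 counts in WT and 3 in KO_sg4, a ratio of 345 (95% counting interval 118 to 1677). Marcks, a substrate of protein kinase C that binds actin and membranes, had 476 counts against 2, a ratio of 231 (63.7 to 1915). The chemokine gene Ccl3 had 472 against 1 (ratio 459, 81.9 to 18149), and the nucleotide enzyme gene Gmpr 1253 against 3 (406, 139 to 1970). Bahcc1, Stox2 and Cdsn had 1 count each in KO_sg4. Tnnt1, a troponin gene, fell from 22.2 to 23.6 CPM in the WT libraries to 0.124, 0 and 0, and the calcium-binding protein gene S100a4 from 25.5 to 32.2 CPM to 0.0619, 0.147 and 0.136. Intervals and floors cover counting error only.

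**Figure D5:**
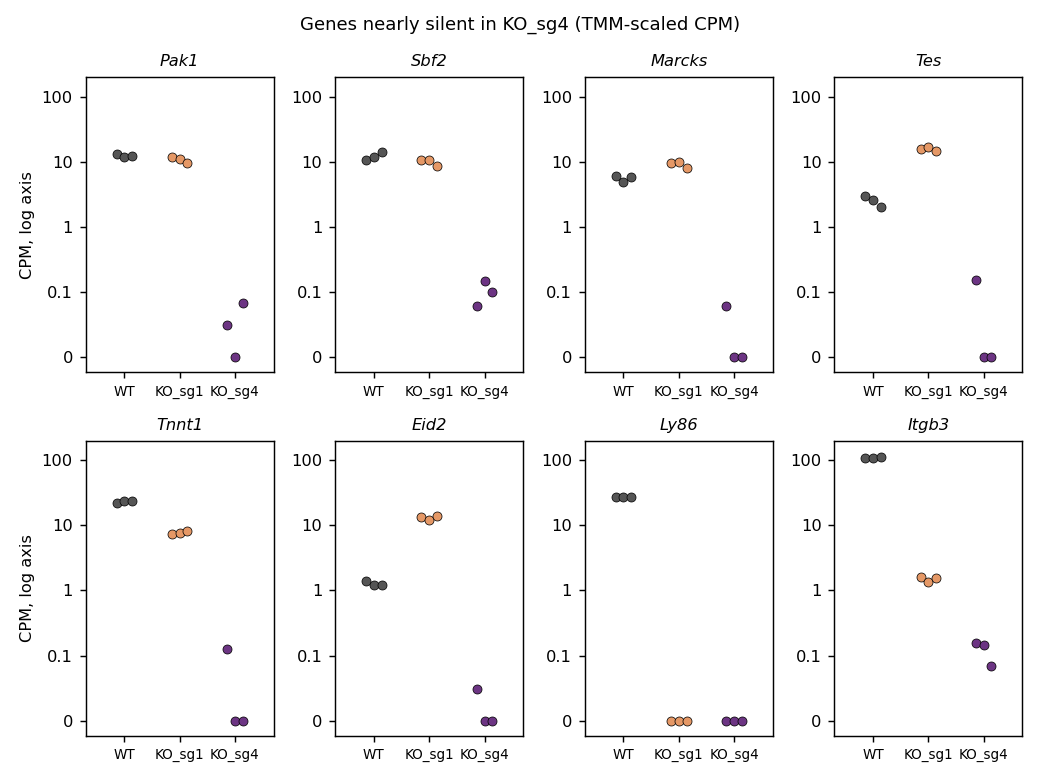
CPM of 8 genes in each WT, KO_sg1 and KO_sg4 library on a log axis, with libraries at 0 counts drawn at the mark labelled 0. Pak1, Sbf2, Marcks, Tes, Tnnt1 and Eid2 are close to 0 in KO_sg4 and at 7.24 CPM or more in KO_sg1, Ly86 is at 0 in both, and Itgb3 lies between 1.36 and 1.62 CPM in KO_sg1.

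Of the 15 genes, 3 were at 1 CPM or more in KO_sg1, Pak1 and Marcks among them. Pak1 was at 12.1, 11.1 and 9.59 CPM in KO_sg1, and Marcks at 9.50, 9.87 and 8.09. Sbf2, a myotubularin-related gene, was at 10.8, 10.7 and 8.76 CPM there, at 10.9 to 14.3 in WT, and at 0.0619, 0.147 and 0.102 in KO_sg4 (-6.64 ± 0.24 against KO_sg1, adjusted p = 1.10e-10). In these genes KO_sg4 stood apart from both other groups. Mta3, a NuRD subunit that in human B cells works with BCL6, was at 27.2, 26.1 and 26.3 CPM in WT, at 26.1, 25.5 and 25.0 in KO_sg1 and at 5.42, 5.43 and 5.13 in KO_sg4 (-2.32 ± 0.07 against WT, adjusted p = 9.55e-12, and -2.26 ± 0.07 against KO_sg1, adjusted p = 3.58e-11). Eid2, a repressor of differentiation, was at 1.27 ± 0.115 CPM in WT and at 12.1 to 13.9 in KO_sg1, and had 1 count in KO_sg4. Tes, an adhesion-associated LIM protein gene, was at 2.03 to 3.02 CPM in WT, 14.8 to 17.2 in KO_sg1 and 0.155, 0 and 0 in KO_sg4, and Tnnt2 and Pcdhgc3 followed the same order. For Eid2, Tes, Tnnt2 and Pcdhgc3 WT lay between the 2 null lines.

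Other genes were high in KO_sg4 and nearly absent from KO_sg1. Ryk was at 27.5, 27.2 and 27.9 CPM in KO_sg4, 4.46, 4.15 and 3.95 in WT and 0.0404, 0.0884 and 0.112 in KO_sg1 (8.38 ± 0.17 against KO_sg1, adjusted p = 5.79e-13). Fam20c, a secretory pathway kinase gene, had 613 counts in KO_sg4 and 1 in KO_sg1, a ratio of 571 (95% counting interval 102 to 22608), with WT between them at 1.58 to 1.84 CPM. Eps8, an actin capping protein gene, Cbr1, a carbonyl reductase gene, Ano10 and the sulfotransferase gene Ust were likewise higher in KO_sg4 than in WT and at 0 to 0.354 CPM in the KO_sg1 libraries. Zic2 stood at 8.07 to 11.5 CPM in KO_sg4 and at 0 to 0.223 in KO_sg1. Ank, a pyrophosphate exporter gene, fell against WT in KO_sg4, from 33.7 to 5.04 CPM, and had 3 counts in KO_sg1. In a principal component analysis of the 9 libraries of WT and both null lines, component 1 (54.1% of the variance) set WT apart, from -59.9 to -58.9 against 25.1 to 34.4 for the null lines, and component 2 (28.7%) split the guides, KO_sg4 at 31.4 to 39.5 and KO_sg1 at -41.3 to -36.1.

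Several B-cell regulators were also higher with guide 4 than with guide 1. Against KO_sg1, 10 of the 24 core B-lineage factors were higher in KO_sg4 and 3 lower (median 0.16; 13.8% of all genes were higher). Rag1 was at 15.2, 16.0 and 13.6 CPM in KO_sg1, below all WT libraries, and the direct difference was 2.51 ± 0.13 (adjusted p = 5.02e-09). Rag2 gave 1.96 ± 0.12 (adjusted p = 2.99e-08), Il7r 1.35 ± 0.08 (adjusted p = 1.70e-08) and Foxo1 0.80 ± 0.11 (adjusted p = 6.20e-05). Id3, at 97.1 ± 1.37 CPM in KO_sg1, was not called between the guides (0.07 ± 0.08, adjusted p = 0.535). Blk was at 0.807 ± 0.249 CPM in KO_sg1, so for this gene KO_sg4 lay between WT and KO_sg1. Itgal (18.7 ± 1.44 CPM in KO_sg1), Cd47 (92.4 ± 3.18) and Cdkn1a (59.4 ± 4.71) were lower with guide 4 than with guide 1, by 2.18 ± 0.10, 1.04 ± 0.06 and 1.83 ± 0.07 on the log2 scale.

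Among chromatin genes, 6 of 14 NuRD subunits rose and 2 fell (median 0.13), where 18.0% of all genes rose and 22.0% fell. Mbd2, which reads methylated DNA, rose by 0.62 ± 0.05 and the remodeller gene Chd3 by 0.62 ± 0.07, while Mta1 fell by 0.35 ± 0.06 beside Mta3. Of 23 genes named PHF with a row in the table, 7 rose and 4 fell (median 0.09); Phf10, a subunit of the BAF remodeller, fell from 233 ± 3.27 to 116 ± 3.14 CPM. Of 27 genes of RNA polymerase I and the nucleolus, 11 rose and 2 fell (median 0.15), and 17 rose without KO_sg4 replicate 1. Nolc1 and Nop58, nucleolar factors, rose by 0.36 ± 0.04 and 0.38 ± 0.05.

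Many markers of other cell types were low or at 0 counts, and several moved. Over all genes tested, 22.0% fell and 18.0% rose. In bulk RNA fewer cells of a type and less RNA per cell cannot be told apart. Of 14 myeloid markers tested, 10 fell and none rose, and the summed level of the list was 47.1 to 50.8 CPM in the WT libraries and 12.6 to 15.1 in KO_sg4; 5 of its genes had 0 counts in both groups. Fcgr1, a high-affinity IgG receptor, was at 13.0, 13.1 and 12.9 CPM against 0.186, 0.0978 and 0.204 (-6.22 ± 0.16), Clec7a fell by 5.93 ± 0.36 and Csf1r had 126 counts against 3 (ratio 40.8, 13.6 to 201), and Lyz2 fell from 8.54 to 6.75 CPM, while Mpo had 2 counts in each group. Of 14 T-cell markers tested, 6 fell and 1 rose (3 fell when the 6 libraries were fitted alone), with sums of 243 to 255 CPM in WT and 169 to 207 in KO_sg4; Cd3e had 0 counts in both groups. Cd28 fell by 4.11 ± 0.25 and Cd2 by 0.63 ± 0.08, and Lck was the member that rose. Of 15 NK-cell markers, 3 were tested and 9 had 0 counts in both groups, among them Ncr1; Klrd1 rose from 1.74 to 7.60 CPM and Klrb1c, the gene of NK1.1, from 0.110 ± 0.0810 to 3.92 ± 0.386. Of 6 erythroid and megakaryocyte markers tested, 2 fell and none rose, with sums of 368 to 395 CPM in WT and 335 to 470 in KO_sg4. Among them, Hbb-b2 fell from 54.6 to 13.0 CPM (-2.07 ± 0.08, adjusted p = 3.45e-11). The stem and progenitor list summed to 562 to 605 CPM in WT and 422 to 554 in KO_sg4. The progenitor factor gene Lmo2 fell from 75.5 ± 1.65 to 21.9 ± 1.37 CPM. All 5 stromal and epithelial markers tested fell, with sums of 752 to 798 CPM in WT and 345 to 386 in KO_sg4. Most of that sum was the intermediate filament gene Vim, which fell from 776 ± 24.7 to 368 ± 21.8 CPM. The part of these shifts in the results above was not tested. Cd79a, Cd79b, Vpreb1 and Igll1 were each at 465 CPM or more in all 6 libraries, which matches the labelled precursor B-cell type in both groups.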

How the data were processed

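Poly(A) RNA of the leukemia cells was sequenced after TruSeq mRNA library preparation, per the labels' protocols. Bowtie 1.0.1, RSEM 1.2.12 and the build mm9 are named in the submitters' processing notes, which state no annotation or strand setting in the form used here. The authors deposited estimated counts per gene, which RSEM divides between genes that share reads, so close copies are uncertain. These were rounded to whole numbers here.

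Genes were kept by filterByExpr (minimum count 10), libraries were scaled by TMM, and edgeR 4.0.16 (R 4.3.3) fitted quasi-likelihood models with 4 group means to all 12 libraries; every adjusted p is Benjamini-Hochberg over the 12335 genes tested, and the threshold was 0.05. The code was tested on simulated data. DESeq2 1.42.0, limma-voom (limma 3.58.1), other scalings, other filters, a replicate block and leaving out each library were alternatives. A count of 0 in a library allows up to 0.0981 to 0.137 CPM (3 counts) in WT and KO_sg4; counting intervals are exact binomial at 95%.

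Members and gene lists were chosen with earlier results of these data known. The genes named were the 15 highest and 15 lowest called genes of at least 5 CPM with no overlap. Added were the 8 highest and 8 lowest against KO_sg1, and up to 5 called members of each list of at least 1 CPM. A fixed set completed them, namely B-cell genes, Phf6, Cdkn2a, Myc, Mta3 and the sex-linked genes Ddx3y, Kdm5d, Uty and Xist. Named after their values were seen were Igf1r, Lig4, Spn, Ms4a1, Syk, Il3ra, Csf2rb, Stat4, Jak1, Jak3, Abl1, Egr1, Fosl2, Jun, Dusp1, Asns and Chac1. So were Atf4, Slc7a11, Syvn1, Slc16a1, Tyms, Ccnd3, Rfxap, H2-Ob, H2-DMb1, B2m, Itga4, Cxcr4, S1pr4, Lyz2, Mpo, Cd3e, Ncr1, Cd180, Irak4 and Notch1. Promoter sequences are RefSeq's (GRCm38.p6), and no coordinate was converted between builds. Results for some genes are not reported here.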

Additional observations from a re-analysis of the deposited data

Results flagged for a closer look

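Each gene here was called against WT in opposite directions in the 2 null lines. Over all genes tested, 193 were called in opposite directions and 2922 in the same direction in both lines. All 193 also differed in the direct test of KO_sg4 against KO_sg1 (edgeR), so that test adds little for them. Fam20c was 8.74 higher in KO_sg4 on the log2 scale, Ryk 8.38, Ano10 6.98, Eps8 6.81, Cbr1 6.31 and Ust 6.08. Chst15, at 63.7 CPM in KO_sg4, 7.90 in WT and 3.64 in KO_sg1, was 4.11 higher, and Vopp1 3.82 higher. The recombinase genes belong to the same set, with 2.51 for Rag1 and 1.96 for Rag2.

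In the other direction, Zap70, a kinase of T-cell receptor signalling, was at 3.33 CPM in KO_sg4, 4.77 in WT and higher in KO_sg1, a log2 difference of -1.29 between the null lines. Its WT and KO_sg4 libraries overlapped, and the call against WT (adjusted p = 0.0174) was lost when only the 6 libraries were fitted (0.0735) and without WT replicate 1 (0.0566), WT replicate 2 (0.0774), KO_sg4 replicate 1 (0.0638) or KO_sg4 replicate 3 (0.0615). Tnnt2 differed by -7.05, Pcdhgc3 by -7.74, Tes by -7.95, Marcks by -8.32 and Eid2 by -9.62. Fitted values of Fam20c, Marcks and Eid2 depend on a prior count, because 1 group had only 1 or 2 counts. As ratios of counts, Marcks was 383-fold lower than in KO_sg1 (95% counting interval 106 to 3173) and Eid2 1064-fold (191 to 42072).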

How the results depend on the processing

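The count of genes called in KO_sg4 against WT lay between 3743 and 5485 over all alternatives, and between 3993 and 5485 with 1 library left out. For KO_sg4 against KO_sg1, library totals gave 2836 higher and 1053 lower (72.9% higher, against 50.6% with TMM). Fitting only the 6 libraries compared gave 1595 calls there, 784 higher and 811 lower. The spread was then estimated from those 6 libraries alone, and the cause of the lower count was not tested. With 1 library left out the calls ranged from 2280 (without KO_sg1 replicate 3) to 5329 (without KO_sg4 replicate 2), the higher calls from 1126 to 2703 and the lower calls from 1154 to 2626. The cause of the rise without KO_sg4 replicate 2 was not tested. No result reversed. Of the named genes against WT, 50 values under an alternative fell short of the threshold and 8 newly passed it, against 3001 that kept their side. Against KO_sg1 the tally was 110, 52 and 2873, so calls between the guides depended more on the setting. Same-numbered KO_sg4 and WT libraries did not deviate together (correlations -0.06, 0.08 and -0.07), so the numbers were not taken as pairs; the replicate block gave 4423 calls against WT, 1923 higher and 2500 lower, and 2730 against KO_sg1. Transcripts below about 0.1 CPM are beyond this depth.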

Other observations

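Most genes tested of the Toll-like receptor list were lower in KO_sg4 than in WT. Of 16 genes of Toll-like receptors and the RP105 and MD-1 pair, 12 fell and none rose (median log2 fold change -0.68, against 0.00 for all genes). Cd180, the gene of RP105, fell from 42.4 to 30.8 CPM, a far smaller change than that of its partner Ly86, and Irak4, a kinase downstream of the receptors, from 21.0 to 17.3 CPM. Of 17 interferon-stimulated genes, 5 fell and 1 rose (median -0.24), where 22.0% of all genes fell and 18.0% rose. The riser was Ifit2 (9.20 to 13.6 CPM). Isg15, 1 of the 5, was just past the threshold (adjusted p = 0.0419) and missed it under 12 of the 15 alternatives, with adjusted p from 0.0363 to 0.165 over all of them.

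Of 17 Notch pathway genes, 6 fell and 3 rose (median -0.14), where 22.0% of all genes fell and 18.0% rose. The ligand gene Jag2 fell from 25.0 to 0.590 CPM and the target gene Hes1 from 53.7 to 18.8 CPM, while Hes5, of the same family, rose from 1.84 to 7.96 CPM. The receptor gene Notch1 fell by 0.24 on the log2 scale. Among progenitor markers 4 of 7 fell and none rose.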
